A study of Mus musculus with 8 samples.

Results

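The genes described here encode axonemal dyneins, the motors of the sperm tail and of motile cilia, together with the factors that build them. Members were chosen by gene symbol alone: every row of the expression table named Dnah, Dnai, Dnal or Dnaaf with a number, Dnali1, and the rows Zmynd10, Lrrc6, Odad2 and Ccdc103. This gave 34 of 17121 genes, of which 9 belong to the outer arm, 13 to the inner arm and 12 to assembly. All 34 passed the filter on low values. Members that the rule names but that have no row in the table, such as Dnah11 and Dnaaf4, were not analysed here.

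Mouse testis RNA was sequenced in 8 libraries, 4 for each of the genotypes labelled CTL and N6amt1-SKO (SKO below). N6amt1 encodes a methyltransferase that works with the partner protein Trmt112, and the series asks what its loss does to meiosis in the male germ line. The labels do not spell out SKO, and they give no age, strain, Cre driver or agent for either group. They also do not tie each library to an animal of its own, so the p-values reflect library spread that may be technical. Although the tissue is labelled testis, the extraction text speaks of heart ventricles. Of 8 heart muscle genes Actc1, Nppa and Myl2 had no row in the table. The other 5 had a summed level of 2225 to 2875 in CTL and of 4279 to 6870 in SKO, and Tnni3 and Tnnt2 rose (log2 1.54 and 1.01; limma adjusted p 0.0123 and 0.0153). The source of these transcripts was not tested. The spermatocyte genes Piwil1 and Hspa2 had means of 57969 and 206485 in CTL.

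Axonemal dyneins sit in 2 rows of arms on the outer doublet microtubules and slide neighbouring doublets past each other, which bends the tail. Each arm is built of very large heavy chains that carry the ATP-driven motor, of intermediate chains that hold the arm to the doublet, and of light chains. Arms are folded and put together in the cytoplasm by dedicated assembly factors that work with chaperones, and docking proteins fix them to the axoneme. In the testis these genes are switched on in late meiotic and early postmeiotic germ cells, and loss of many of them leaves sperm without movement. Outer arms come in a version for motile cilia, with Dnah5, Dnah9 and Dnah11 as heavy chains, and in a version for the sperm tail, with Dnah8 and Dnah17.

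Values below are the deposited values after TMM scaling, which puts the 8 libraries on a common scale without using lengths. Estimated reads numbered 257.7 and 224.6 M in CTL 1 and CTL 2 and 40.6 to 70.1 M in the other 6 libraries. The share of values on the 18S ribosomal RNA row was 0.73%, 0.72% and 0.97% in CTL 3, CTL 4 and SKO 4 and 0.17% to 0.27% in the other 5 libraries. The share of mitochondrially encoded genes was 1.13% to 1.99% across CTL libraries and 2.11% to 4.53% across SKO libraries. The targeted gene was not lower in SKO: N6amt1 was at 513 ± 84.6 in CTL and 582 ± 31.1 in SKO (SD, n = 4 each; limma adjusted p 0.437). The targeted part of the gene is not stated in the labels.

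Of the 34 axonemal dynein genes 18 were lower in SKO by the test (limma, Benjamini-Hochberg adjusted p below 0.05), none rose, and 16 did not pass. At an unadjusted p below 0.05, 25 members were lower and 0 higher. Over all 17066 genes tested, 7.93% fell and 11.9% rose. The median log2 fold change was −0.76 over the members and 0.04 over all genes. In 21 members every SKO library lay below every CTL library, against 10.6% of all genes. The estimate was below 0 for 32 members, all but Dnal1 and Dnaaf6b. Under another scaling Dnaaf2, Dnaaf9 and Dnaaf10 turned above 0 and Dnal1 below. By arm, 11 of 13 inner arm genes fell (median −1.197), 4 of 9 outer arm genes (median −0.63) and 3 of 12 assembly genes (median −0.43). By kind, 11 of 14 heavy chains fell (median −1.29) and 7 of the 20 other members (median −0.54). Arm and kind are mixed in these medians: 10 of the 13 inner arm genes and 4 of the 9 outer arm genes are heavy chains, and no assembly gene is. The outer heavy chains Dnah8 and Dnah17 were at −1.51 and −1.46 and the scarce Dnah5 and Dnah9 at −0.52 and −0.40. The median of the 10 inner heavy chains was −1.29. The order of the arms was the same in the libraries with less and with more 18S, but its spacing differed. With less 18S the medians were −0.70 for the inner arm, −0.68 for the outer arm and −0.55 for assembly, and with more 18S, where SKO has 1 library, −1.66, −0.61 and −0.20. The plot of fold changes shows all 34. The number of calls depended on single libraries: it was 7 without CTL 3, 6 without SKO 1, 10 without SKO 2 and 0 without SKO 3. Calls over all genes dropped in the same fits, to 3.22%, 2.75%, 2.96% and 0% fallen. Without SKO 3 no gene of the table passed (smallest limma adjusted p 0.0569), 4784 genes had an unadjusted p below 0.05, and 20 members were lower at that level. Dnai1, Dnai2, Dnai4, Dnali1 and Zmynd10 kept their call when any library but SKO 3 was left out.

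**Figure D1:**
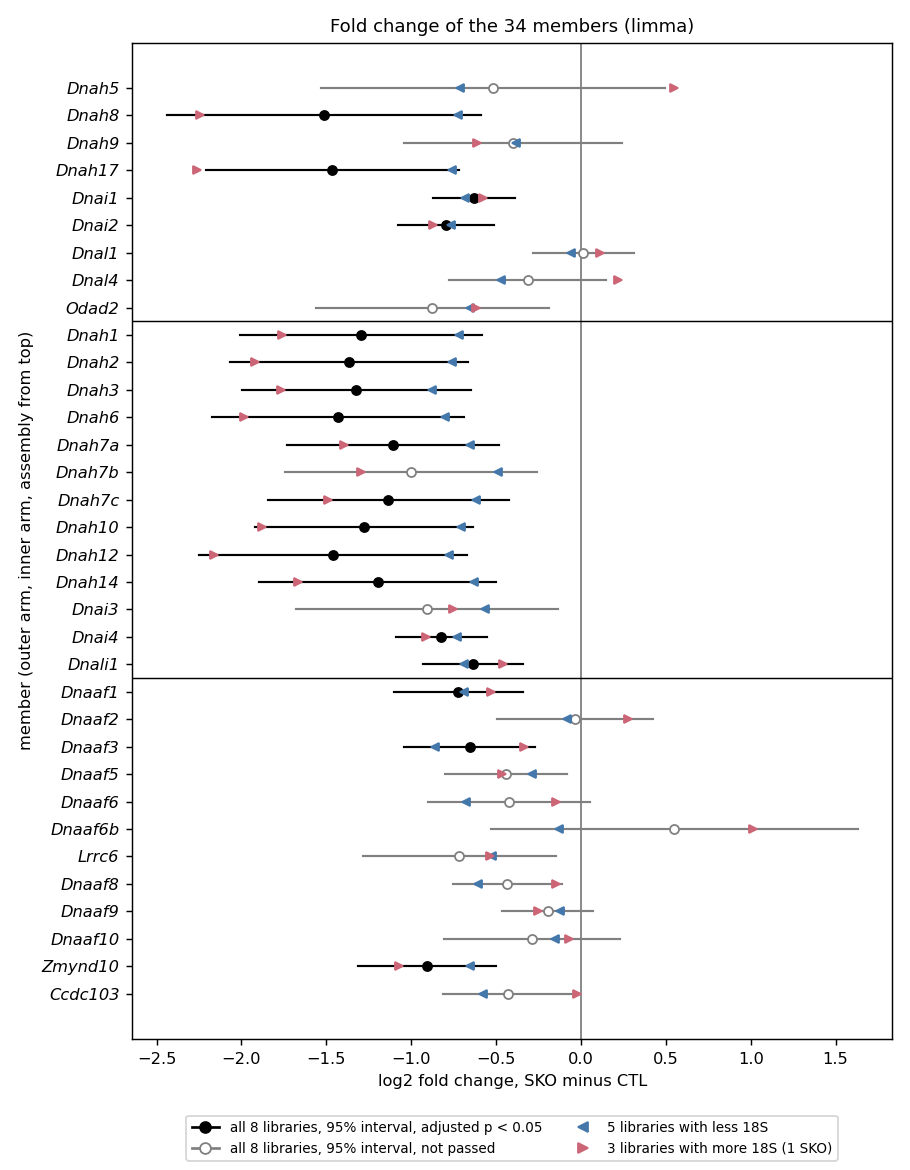
Log2 fold change of each of the 34 members, SKO minus CTL, with its 95% interval (circles, filled where the adjusted p from limma is below 0.05), and the same estimate within the 5 libraries with less 18S and the 3 libraries with more 18S (triangles). The 18 filled circles lie between −1.51 and −0.63, and the heavy chains other than Dnah5 and Dnah9 have their lower estimates in the set with more 18S, which holds 1 SKO library.

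Outer arm heavy chains of the sperm tail fell, while those of motile cilia were scarce and did not pass. Dnah8, the gamma-type heavy chain of the sperm tail (chr17:30626935-30875762, GRCm38), had values of 216652, 211046, 589265 and 747289 in CTL 1 to 4 and of 96943, 153976, 146340 and 138457 in SKO 1 to 4. All SKO libraries were below all CTL libraries, and CTL 3 and CTL 4 stood far above CTL 1 and CTL 2. Its fall was 2.86-fold (log2 −1.51 ± 0.41, SE; limma adjusted p 0.0334). Dnah17, the beta-type chain that pairs with it (chr11:118021723-118130719), had values of 82008, 84972, 206240 and 209085 in CTL and 41587, 58986, 49256 and 42808 in SKO. The same pair of CTL libraries was high and the groups did not overlap, with a 2.76-fold fall (log2 −1.46 ± 0.33, SE; limma adjusted p 0.0198).

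Dnah5 and Dnah9 build the outer arm of motile cilia. Dnah5 had values of 187, 231, 405 and 210 in CTL and 124, 174, 90.8 and 425 in SKO, from 59 to 483 reads per library. SKO 4 was the highest of all 8 libraries and the groups overlapped (log2 −0.52 ± 0.45, SE; limma adjusted p 0.440). Dnah9 had values of 322, 530, 461 and 293 in CTL and 297, 464, 230 and 236 in SKO, also overlapping (log2 −0.40 ± 0.29, SE; limma adjusted p 0.345). Levels can be compared between genes only per length: per kb of the longest transcript the CTL means were 26435 ± 16194 for Dnah8 and 9723 ± 4789 for Dnah17, and 16.5 ± 6.38 for Dnah5 and 29.1 ± 8.15 for Dnah9 (SD, n = 4). In every library the level per kb of each sperm tail chain was far above that of each chain of cilia.

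**Figure D2:**
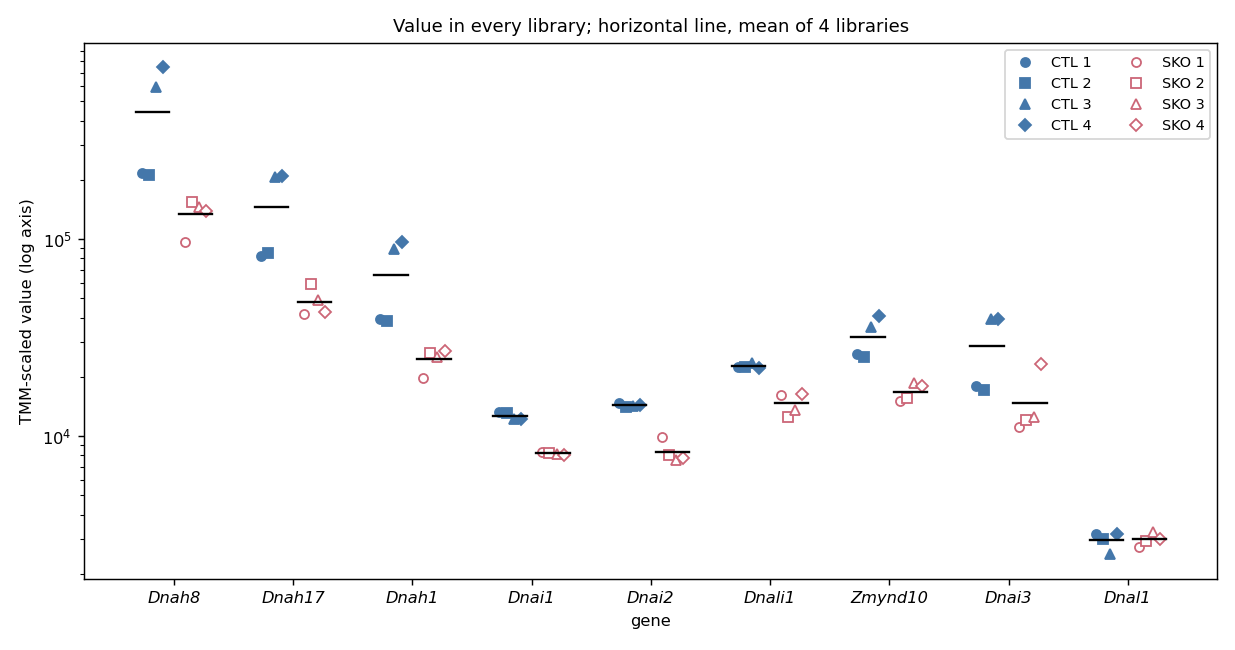
TMM-scaled value (log axis) of 9 members in every library, CTL filled and SKO open, with the mean of 4 libraries as a line. Dnah8, Dnah17 and Dnah1 show CTL 3 and CTL 4 well above CTL 1 and CTL 2, Dnai1, Dnai2 and Dnali1 show 4 CTL libraries close together above all SKO libraries, and Dnal1 shows no separation.

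The intermediate chains of the outer arm fell with little spread. Dnai1 had values of 13243, 13031, 12188 and 12197 in CTL and 8305, 8195, 8111 and 8064 in SKO. Both groups were tight, with a 1.55-fold fall (log2 −0.63 ± 0.11, SE; limma adjusted p 0.0123). Dnai2, its partner in holding the arm to the doublet, had values of 14722, 14053, 14267 and 14371 in CTL and 9927, 8044, 7584 and 7719 in SKO. SKO 1 was the highest of the SKO libraries and still below every CTL library, and the fall was 1.74-fold (log2 −0.80 ± 0.13, SE; limma adjusted p 0.0123). In neither gene did CTL 3 and CTL 4 stand above CTL 1 and CTL 2 (ratios of their means 0.928 and 0.995).

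The outer arm light chains did not pass the test. Dnal1, which binds a heavy chain motor domain, was at 2969 ± 318 in CTL and 2988 ± 216 in SKO (SD, n = 4; log2 0.01 ± 0.13, SE; limma adjusted p 0.958). The 95% interval of its log2 fold change ran from −0.28 to 0.31, so a fall of the size seen in Dnai1 lies outside it. Dnal4 was at 11946 ± 1380 in CTL and 9874 ± 2967 in SKO (limma adjusted p 0.2998), with SKO 4 the highest of all 8 libraries. Odad2, a docking protein, had values of 8509, 9942, 20256 and 14762 in CTL and 5897, 6104, 5554 and 11121 in SKO. CTL 3, CTL 4 and SKO 4 were its 3 highest libraries, and it missed the threshold (log2 −0.88 ± 0.31, SE; limma adjusted p 0.0698). Of the 3 docking genes with other symbols, Odad4 fell 1.56-fold (limma adjusted p 0.0245), while Odad1 (0.177) and Odad3 (0.0778) did not pass.

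In inner arm f, the inner arm with a pair of heavy chains, 3 of 4 genes fell. Dnah2 had values of 31739, 29762, 70696 and 76814 in CTL and 15800, 20020, 19058 and 19241 in SKO, and fell 2.58-fold (log2 −1.37 ± 0.31, SE; limma adjusted p 0.0202). Dnah10, the other heavy chain of this arm, had values of 17440, 18419, 42474 and 35215 in CTL and 9710, 13262, 10361 and 10391 in SKO, and fell 2.43-fold (log2 −1.28 ± 0.29, SE; limma adjusted p 0.0193). In both, CTL 3 and CTL 4 were the high libraries and no SKO library reached the lowest CTL library. Dnai4, an intermediate chain of the same arm, had values of 15628, 15191, 16172 and 18794 in CTL and 9599, 8783, 9531 and 9142 in SKO. It had the smallest unadjusted p of all members and fell 1.77-fold (log2 −0.82 ± 0.12, SE; limma adjusted p 0.0123). Dnai3, its partner, had values of 17958, 17184, 39543 and 39369 in CTL and 11148, 12083, 12450 and 23129 in SKO. SKO 4 was above CTL 1 and CTL 2, so the groups overlapped, and the call was missed (log2 −0.91 ± 0.34, SE; limma adjusted p 0.0874).

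Of the 8 heavy chains of single-headed inner arms 7 fell. Dnah1, needed for male fertility, had values of 39226, 38277, 88907 and 96708 in CTL and 19694, 26390, 25198 and 27030 in SKO, a 2.46-fold fall (log2 −1.30 ± 0.32, SE; limma adjusted p 0.0236). Dnah3 had values of 15110, 21477, 41822 and 26284 in CTL and 9462, 13637, 7345 and 9608 in SKO, a 2.50-fold fall (log2 −1.32 ± 0.30, SE; limma adjusted p 0.0197). In Dnah3 the highest library was CTL 3, and CTL 4 was nearer to CTL 2 than in the other chains. Dnah6 had values of 22210, 23100, 53168 and 60576 in CTL and 10838, 15523, 13144 and 14139 in SKO, a 2.70-fold fall (log2 −1.43 ± 0.33, SE; limma adjusted p 0.0210). Dnah12 had values of 23121, 24772, 48860 and 73599 in CTL and 10741, 17233, 14673 and 13234 in SKO, a 2.75-fold fall (log2 −1.46 ± 0.35, SE; limma adjusted p 0.0230). CTL 4 was the highest library in both, and the groups did not overlap. Dnah14, placed here by homology, had values of 31241, 30211, 62826 and 80908 in CTL and 16783, 22395, 20797 and 22224 in SKO, a 2.29-fold fall (log2 −1.197 ± 0.31, SE; limma adjusted p 0.0288). Of the exon bases of Dnah3, 10.5% overlap the gene Lyrm1 on the opposite strand, and without strand information their reads cannot be told apart.

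The mouse has 3 copies of Dnah7 on chromosome 1, and their reads are partly interchangeable. Dnah7a lies at chr1:53396995-53707301, Dnah7b at chr1:46066071-46373551 and Dnah7c at chr1:46425428-46807477 (GRCm38). Of their transcripts' 50-base words, 40.3%, 48.4% and 48.5% also occur in another copy, so the split of reads between them is uncertain. The longest coding stretch identical in all 3 is 217 bases, starting at coding base 5224 in Dnah7a and Dnah7c and at base 5356 in Dnah7b. Its first 90 bases are shown, followed by a 50-base window in which 10 positions differ between the copies (capitals), to show where reads can and cannot be assigned.
Shared by Dnah7a, Dnah7b and Dnah7c: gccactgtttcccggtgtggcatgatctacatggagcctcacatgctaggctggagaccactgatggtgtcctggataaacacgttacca
Dnah7a, coding base 436 onward: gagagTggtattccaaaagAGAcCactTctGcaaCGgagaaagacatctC
Dnah7b, coding base 568 onward: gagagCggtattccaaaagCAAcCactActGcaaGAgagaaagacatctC
Dnah7c, coding base 436 onward: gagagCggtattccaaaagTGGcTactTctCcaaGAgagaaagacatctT
Dnah7a had values of 18270, 18213, 33446 and 43028 in CTL and 10224, 12817, 11896 and 14223 in SKO, a 2.16-fold fall (log2 −1.11 ± 0.28, SE; limma adjusted p 0.0261). Dnah7c had values of 20288, 19835, 39364 and 52828 in CTL and 10418, 14707, 14674 and 16028 in SKO, a 2.19-fold fall (log2 −1.13 ± 0.32, SE; limma adjusted p 0.0352). Dnah7b had values of 26185, 24783, 50695 and 70235 in CTL and 14381, 20675, 20063 and 23982 in SKO. Its groups did not overlap either, and it missed the threshold narrowly (log2 −1.003 ± 0.33, SE; limma adjusted p 0.0594). The order of the libraries was much the same in the 3 copies, with CTL 4 highest and SKO 1 lowest.

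Dnali1, the light intermediate chain of the single-headed inner arms, had values of 22557, 22389, 23496 and 22151 in CTL and 16220, 12459, 13504 and 16424 in SKO. The CTL libraries differed from each other by less than the SKO libraries did, all SKO libraries were lower, and the fall was 1.56-fold (log2 −0.64 ± 0.13, SE; limma adjusted p 0.0160). Casc1, an inner arm chain outside the symbol rule, fell 1.56-fold, from 7970 ± 381 to 5110 ± 382 (SD, n = 4; limma adjusted p 0.0134).

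**Figure D3:**
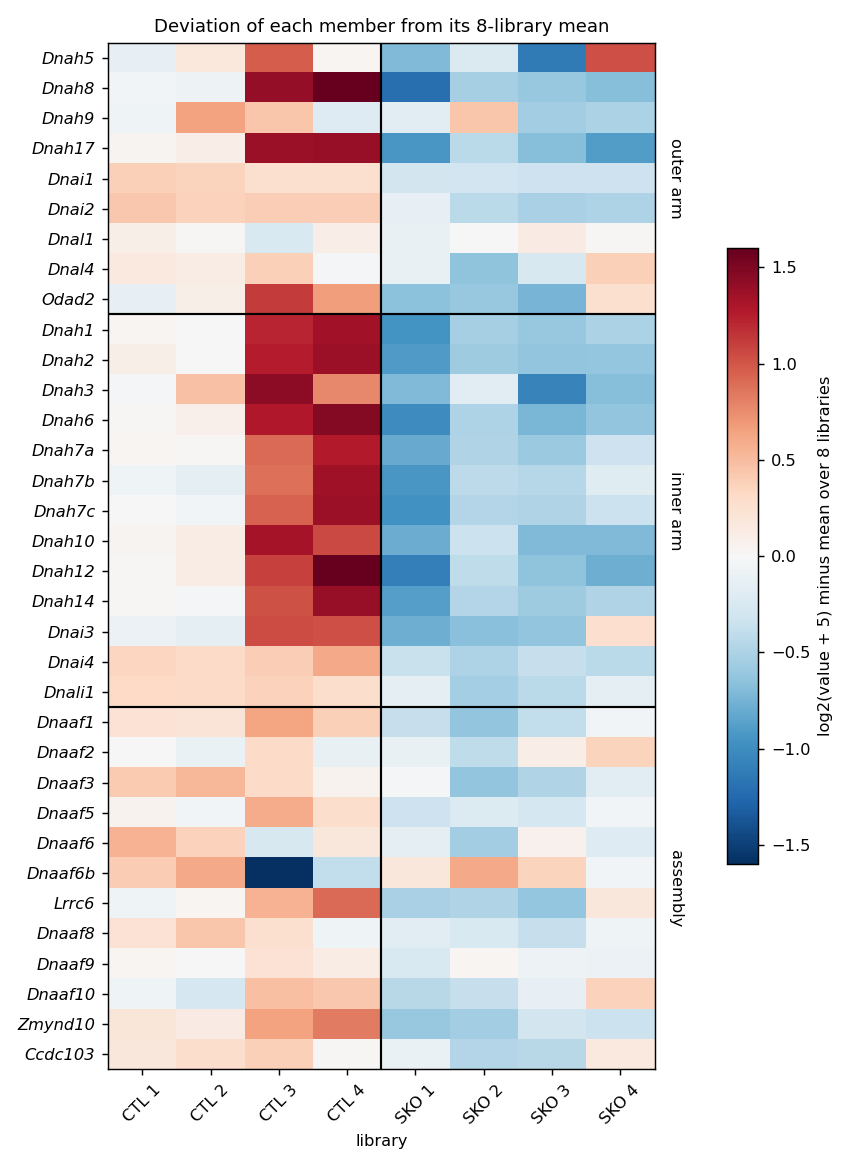
Deviation of log2(value + 5) from the mean over 8 libraries for each member (rows, by arm) and library (columns), red above and blue below the mean. CTL 3 and CTL 4 are darkest red in the heavy chains other than Dnah5 and Dnah9, and Dnai1, Dnai2, Dnai4 and Dnali1 are red in all CTL libraries and blue in all SKO libraries.

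Among assembly factors, 3 of 12 fell and none rose. Dnaaf1, a leucine-rich repeat protein and the most abundant member per kb, had values of 119336, 116527, 156825 and 131886 in CTL and 78477, 65224, 77146 and 98476 in SKO. The groups did not overlap and the fall was 1.65-fold (log2 −0.72 ± 0.17, SE; limma adjusted p 0.0218). The gene Taf1c on the opposite strand covers 20.7% of its exon bases. Dnaaf3 had values of 6898, 7462, 6401 and 5347 in CTL and 5056, 3320, 3703 and 4584 in SKO, a 1.58-fold fall (log2 −0.66 ± 0.17, SE; limma adjusted p 0.0294), with SKO 1 close to CTL 4. Zmynd10, which acts with chaperones on the heavy chains, had values of 26170, 25135, 35828 and 40738 in CTL and 15013, 15547, 18644 and 17956 in SKO. Every SKO library lay below every CTL library, and the fall was 1.87-fold (log2 −0.90 ± 0.18, SE; limma adjusted p 0.0153).

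The other 9 assembly genes did not pass. Lrrc6, which binds Zmynd10, had values of 10497, 11179, 16199 and 20598 in CTL and 7653, 7839, 7161 and 12455 in SKO (log2 −0.72 ± 0.25, SE; limma adjusted p 0.0716). As in Odad2 and Dnai3, CTL 3, CTL 4 and SKO 4 were its highest libraries. Dnaaf5 and Dnaaf8 had every SKO library below every CTL library without passing, at log2 −0.44 and −0.43 (limma adjusted p 0.0777 and 0.0597). For Dnaaf8 the separation was narrow, since its lowest CTL and highest SKO value both rounded to 4412. Ccdc103, which attaches arms to the axoneme, was at log2 −0.43 (limma adjusted p 0.1). The co-chaperone gene Dnaaf6 was at −0.42 (0.179), Dnaaf10 at −0.29 (0.398), Dnaaf9 at −0.20 (0.265) and the co-chaperone gene Dnaaf2 at −0.04 (0.922), all by limma with adjusted p. Dnaaf2 shares 71.4% of its exon bases with other genes, and Dnaaf10 18.5% with Ppp3r1. Dnaaf6b, the X-linked copy of Dnaaf6, rested on 18 to 373 reads per library and had an estimate of 0.55 ± 0.48 (SE; limma adjusted p 0.443). It matched no transcript sequence, so how far its reads can be told from those of Dnaaf6 was not measured.

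Most heavy chains differed within the CTL group. The 12 heavy chains other than the scarce Dnah5 and Dnah9, a group made after the values had been seen, were at 1.86 to 3.13 times as high in CTL 3 and CTL 4 as in CTL 1 and CTL 2 (median 2.38). Over all genes the median of this ratio was 1.01, and over 369 other genes with transcripts of at least 10000 bases it was 1.46. Of the 20 members that are no heavy chains 4 had a ratio above 1.5: Dnai3, Odad2, Lrrc6 and Dnaaf10. Between SKO 4 and the other SKO libraries the ratio of the 12 chains ran from 0.857 to 1.31, while it was 3.28 in Dnah5. Of the 20 members that are no heavy chains 5 were above 1.5 in it: Dnai3 (1.94), Odad2 (1.90), Lrrc6 (1.65), Dnal4 (1.63) and Dnaaf10. CTL 3 and CTL 4 carry the higher 18S shares among the CTL libraries and the fewer reads. Marker sums of other cells did not all split the same CTL libraries alike. The endothelial sum was 4592 and 5827 in CTL 1 and CTL 2 and 8034 and 7357 in CTL 3 and CTL 4. Leydig cell markers summed to 46597 and 48124 against 58390 and 49713, also higher in CTL 3 and CTL 4. Sums of round spermatid, elongating spermatid and Sertoli cell markers went the other way, as did those of spermatogonia and spermatocytes. Round spermatid markers summed to 101317 and 139145 in CTL 1 and CTL 2 and to 49133 and 33007 in CTL 3 and CTL 4. Elongating spermatid markers summed to 549338 and 672340 against 234057 and 78886, and Sertoli cell markers to 183066 and 176268 against 89101 and 97152. Their part in the heavy chain values was not tested.

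Within the 5 libraries with less 18S (CTL 1 and 2 against SKO 1 to 3) the 12 heavy chains were at log2 −0.88 to −0.49, and 11 of them fell by limma. Within the 3 libraries with more 18S (CTL 3 and 4 against SKO 4 alone, whose spread is assumed to be that of the others) they were at −2.26 to −1.30. In the set with less 18S 24 of 34 members fell, where 13.4% of all genes did. Calls in the set with more 18S rest on a single SKO library (12 members and 1.53% of all genes by the pooled spread), and nothing is read from them. The difference between the sets was not established for any member: no interaction term passed after adjustment over all genes (limma adjusted p 0.27 to 0.834 over the 14 heavy chains), and 0.00586% of all genes passed. Without adjustment it was below 0.05 in 11 of the 14 heavy chains, in 0 of the 20 other members and in 17.2% of all genes. Left out as a pair, a choice made after seeing the data, CTL 3 and CTL 4 left 19 members fallen, where 9.71% of all genes fell, and a median of −0.72 over the 14 heavy chains.

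**Figure D4:**
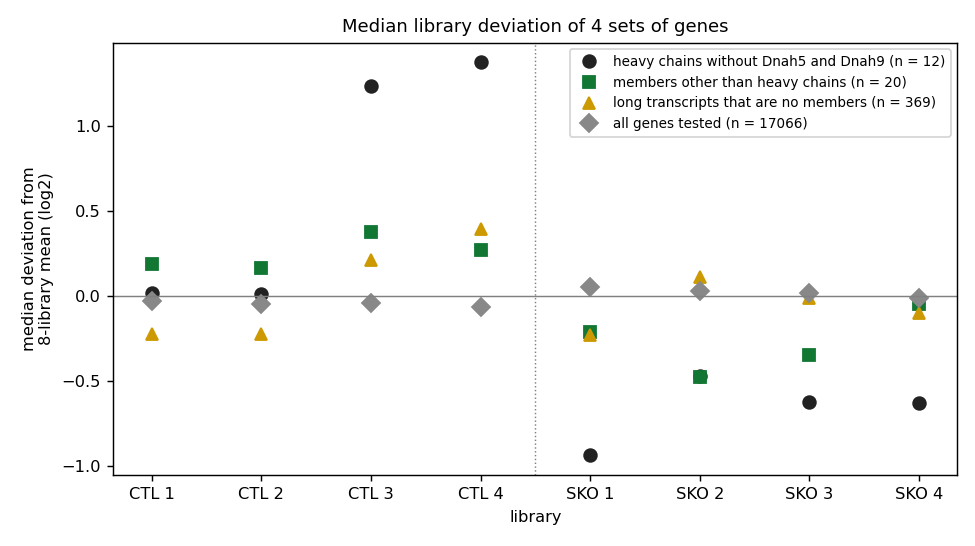
Median deviation from the 8-library mean in each library for 4 sets of genes: the 12 heavy chains, the 20 other members, 369 long transcripts that are no members, and all genes tested. The heavy chains reach 1.24 and 1.37 in CTL 3 and CTL 4 and lie at 0.02 and 0.01 in CTL 1 and CTL 2, the long transcripts reach 0.21 and 0.39, and the median of all genes stays between −0.06 and 0.05.

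Transcript length was one property that the heavy chains share and the symbol rule did not use. Their longest transcripts run to over 10000 bases, 16685 in Dnah8. Of 369 other genes with such transcripts 53 fell (14.4%) and 21 rose, with a median log2 fold change of −0.05. After a correction of each library for its trend with length and GC content the 12 heavy chains were at folds of 1.74 to 2.43, and 21 members fell, where 9.96% of all genes did. Dnaaf6b, Dnaaf8 and Dnaaf9 had no length, so their values were not corrected. Dnaaf8 is among the 21 with an unchanged estimate (limma adjusted p 0.0396). The part of length, depth and 18S share in the remaining difference was not tested.

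Beside these falls, marker lists of other testis cells moved. The summed level of 10 spermatocyte markers ran from 638984 to 816616 in CTL and from 511049 to 566588 in SKO, and 3 of them fell: Piwil1, Hspa2 and Adam2. Sycp1, Sycp3 and Hormad1 of the same list were at log2 0.31, 0.20 and 0.07, and Ldhc, Pgk2, Ccna1 and Meioc were below 0. None of these passed. Ldhc and Hspa2 had the highest CTL means of the list, 277533 and 206485. Of 15 Sertoli cell markers 11 rose, among them Sox9 and Amh, and their sum ran from 89101 to 183066 in CTL and from 185868 to 357860 in SKO. Spermatogonial markers rose in 4 of 7, Stra8 among them. The shares over all genes tested were 11.9% risen and 7.93% fallen. Round spermatid markers were called in 0 of 9 by limma, with 0 at an unadjusted p below 0.05 (sums of 33007 to 139145 in CTL and 37397 to 92422 in SKO), and elongating spermatid markers likewise in 0 of 9 (78886 to 672340 and 149785 to 569788). Over the 5 libraries with less 18S the round spermatid markers had a median log2 fold change of −0.87, with 2 fallen, and the elongating ones of −1.22, with 1 fallen. Over the 3 libraries with more 18S their medians were 0.02 and 0.41. In bulk tissue fewer cells of a type and less RNA per cell cannot be told apart, and the part of cell makeup in the dynein results was not tested. Efferent duct epithelium also carries motile cilia. Of 11 markers of epididymis and efferent duct, Lcn5, Lcn8, Lcn9, Crisp1, Adam7 and Mcidas had no row. By limma 0 of the other 5 were called (1 at an unadjusted p below 0.05). Their sum ran from 12744 to 37182 in CTL and from 11685 to 24237 in SKO. Most of this sum came from Foxj1, at 10533 to 34079 in CTL and 9364 to 21510 in SKO. Foxj1 is also named below as a factor of motile cilia, so the sum is no measure of duct tissue alone.

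Across members, levels per kb of transcript spanned a wide range. Among the 31 members with a length, in order of the CTL mean, Dnaaf1 was highest (46488 ± 6514 in CTL; 28299 ± 4886 in SKO), followed by Dnah8, Zmynd10 (18112 ± 4291; 9513 ± 1008), Dnali1 (10618 ± 276; 6869 ± 927) and Dnah17 (SD, n = 4 each). The order differed in SKO, where Dnah8 (8027) was below Zmynd10, and Dnah17 (3216) below Dnal4 (6708) and Dnai3 (4629). Dnah8 and Zmynd10 did not differ beyond their spread in CTL, nor did Dnali1 and Dnah17, nor the outer arm partners Dnai1 (5046 ± 220) and Dnai2 (4994 ± 97.2). Dnal1 was low, at 518 ± 55.4 per kb. Of the 31, Dnaaf2, Dnah9 and Dnah5 were lower than it in CTL.

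**Figure D5:**
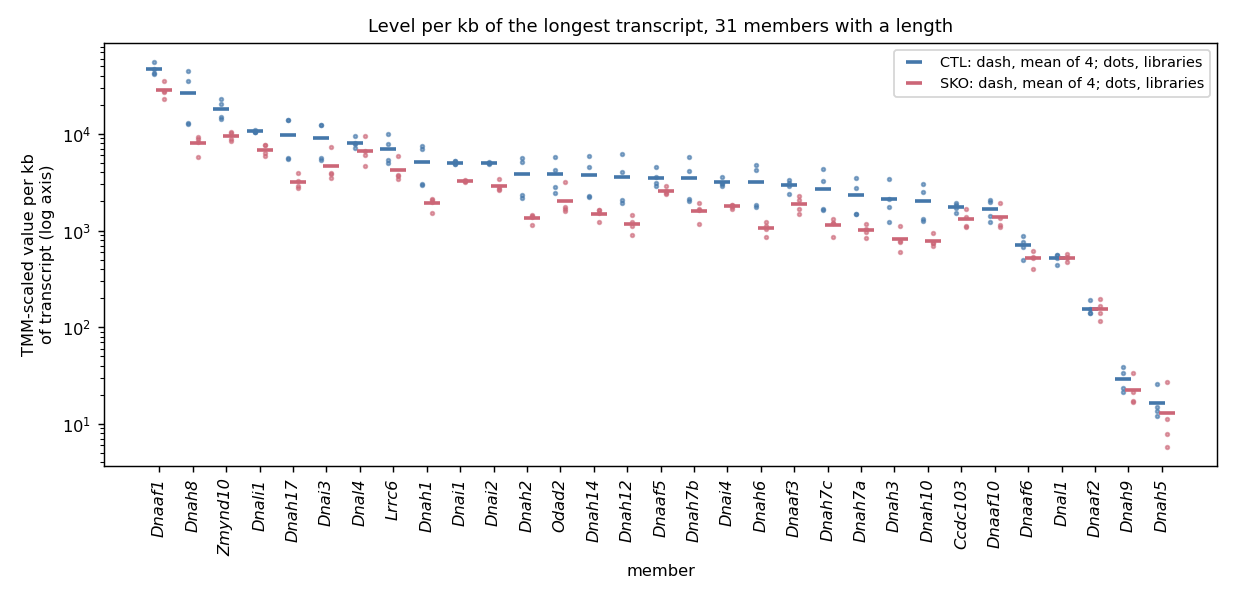
TMM-scaled value per kb of the longest transcript (log axis) for the 31 members with a length, in order of the CTL mean, with dashes for the mean of 4 libraries and dots for single libraries. Dnaaf1 stands highest at 46488 in CTL, and Dnah9 and Dnah5 stand lowest at 29.1 and 16.5.

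Other genes of the arms and their surroundings moved in part with the members. In the docking, ruler and nexin-dynein regulatory complex list, whose proteins anchor the arms and set their spacing, 6 of 13 genes fell and none rose (median log2 −0.73). They were Drc7 (1.85-fold), Fbxl13 (1.83-fold), Tcte1 (1.77-fold), Drc1 (1.72-fold) and Ccdc65 (1.49-fold) of the nexin-dynein regulatory complex, and Ccdc39 (1.70-fold), a ruler protein that sets the repeat along the doublet. Of 10 assembly factors and partners under other symbols 5 fell (median −0.44): Lrrc56 (1.78-fold), Spag1 (1.62-fold), Daw1 (1.57-fold), Pih1d2 (1.45-fold) and Cfap300 (1.40-fold). The chaperone partners Ruvbl1 and Ruvbl2, used by many other complexes, were at log2 −0.02 and −0.31 and did not pass.

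Light chains shared with cytoplasmic dynein did not follow: of 9 none fell by limma (0 at an unadjusted p below 0.05), and Dynlrb1 (1.87-fold) and Dynlt3 (1.67-fold) rose. Of 7 genes of cytoplasmic and intraflagellar dynein, which carry cargo along microtubules, Dync2h1 alone fell (2.15-fold, limma adjusted p 0.035). Dync1h1, the cytoplasmic heavy chain and the most abundant of them, had values of 135938, 137231, 408964 and 401693 in CTL and of 86238, 127671, 109674 and 107182 in SKO. It did not pass (log2 −1.14 ± 0.39, SE; limma adjusted p 0.0642), and CTL 3 and CTL 4 were its high libraries as in the axonemal heavy chains. Of 9 transcription factors of ciliary and spermatid genes, Rfx2 (1.96-fold), Rfx3 (1.46-fold) and Tbpl1 (1.39-fold) fell and Taf7l rose 1.58-fold. Rfx2, a factor needed for the postmeiotic ciliary programme, went from 62629 ± 7569 in CTL to 32127 ± 5230 in SKO (SD, n = 4; limma adjusted p 0.0123). Foxj1, the master factor of motile cilia, was at log2 −0.45 (limma adjusted p 0.424).

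RFX factors bind the X-box, and CREM binds the cyclic AMP response element, so both motifs were searched on either strand of RefSeq promoters (GRCm38, from 250 bases before to 50 after the start). A promoter was found for 27 members, of which 15 had fallen. A member was counted if any of its promoters held a match, while over all genes each promoter was counted by itself. The shares of members and of promoters below are therefore in unlike units, and a gene with several promoters has more places for a match. Copies of a gene were counted as separate members, as with Dnaaf6 and Dnaaf6b and with Dnah7a, Dnah7b and Dnah7c. A 14-base X-box form (GTNNCC and, after 3 bases of any kind, GNAAC) was present in 6 of 27 (22.2%) and in 2.17% of 32851 promoters. It was found in 2 of the members that fell, Zmynd10 and Dnah17, and in Dnaaf2, Dnaaf5, Dnaaf6 and Dnaaf6b, which did not pass. The shorter GTTGCC was present in 11 members (40.7%) and in 12.5% of all promoters, 5 of the 11 being members that fell: Dnah10, Dnah7a, Dnah7c, Dnai2 and Zmynd10. In Dnaaf2, Dnaaf6 and Dnaaf6b the longer and the shorter motif overlap. The element TGACGTCA was present in Dnah6, which fell, and in Dnai3, against 1.79% of all promoters. Windows are printed on the strand of the gene with the match in capitals, for 4 members that fell and 2 assembly genes that did not pass; where the match is to the opposite strand the capitals read as its reverse complement.
Zmynd10, chr9:107547292-107547329, plus strand: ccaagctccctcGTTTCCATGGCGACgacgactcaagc
Dnah17, chr11:118129353-118129390, minus strand: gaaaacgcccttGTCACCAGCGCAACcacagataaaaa
Dnaaf2, chr12:69198421-69198458, minus strand: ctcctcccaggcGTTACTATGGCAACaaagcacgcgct
Dnaaf6, chr1:31222768-31222805, plus strand: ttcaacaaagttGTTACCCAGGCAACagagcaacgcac
Dnai2, chr11:114727381-114727410, plus strand: ccagggttgctaGGCAACtggtaaactccg
Dnah6, chr6:73221787-73221818, minus strand: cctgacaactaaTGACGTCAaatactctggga
These are matches of letters and not measured binding, and they were found in members that fell and in members that did not.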

How the data were processed

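The 8 RNA-seq libraries, 4 per genotype label, are from mouse testis, with groups and replicate numbers taken from the sample titles. Of the software, the submitters' processing notes list HISAT2 2.0.5, CASAVA, featureCounts 1.5.0-p3 and fastp, and the build mm10. The library kit named in the labels does not mark strand. The deposited table holds a score, not raw counts: from the values, the authors multiplied read counts by a factor per library and rounded them. Totals divided by the estimated factors give 40.6 to 257.7 M reads per library, with a weaker estimate for CTL 1 and CTL 2. The sources used here do not say how the factors were set or how pairs and multi-mapped reads were treated. Of the rows, 204 are identical to another row, none of them a member.

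The filter asked for 25 or more in 4 or more libraries and kept 17066 of 17121 genes. After TMM scaling (trims of 30% and 5%), limma 3.58.1 (R 4.3.3) was run on log2(value + 5), with a mean trend and no covariate. This replaces a count test, which these values do not allow. Fold changes are differences of mean log2(value + 5), which understates the change of low genes. P-values are two-sided and were adjusted over all genes by Benjamini-Hochberg, with 0.05 as the threshold. The script was tested on simulated data. Members and gene lists were chosen with earlier results of these data known, and so were the motifs. Every member is named. Values in every library are given for members past the threshold and for heavy chains, and also for Dnai3, Lrrc6 and Odad2, chosen after their values were seen. Pathway genes are named where they passed, and the most abundant one where none did. Named outside this rule, after their values were seen, were Dync1h1, Ruvbl1, Ruvbl2, Odad1, Odad3, Foxj1 and, among markers, Adam2, Tnni3, Tnnt2, Cyp17a1 and Hsd17b3. The remaining spermatocyte markers were also named outside it. From each marker list the first 2 detected genes are named, partly in the closing section.

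Transcript lengths, GC content and exon overlaps are from GENCODE M21, promoters and gene positions from RefSeq (GRCm38). Of the 34 members 32 matched a RefSeq position and 31 a transcript length, 6 of them through older symbols matched by hand. Libraries were split at an 18S share of 0.5%. The alternatives tried were 3 other scalings, 2 other constants, no filter and a filter of 200, no trend, a replicate block, the 18S set as covariate or as a split, a length and GC correction, a test against a fold of 1.2, and each library or pair of control libraries left out.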

Additional observations from a re-analysis of the deposited data

Results flagged for a closer look

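Of 68 groups of 4 libraries (34 members in 2 genotypes), Dixon's test at the 95% level singled out 3 (4.41%), no more than the about 1 in 20 that chance gives. All 3 concern SKO 4. Dnai3, an inner arm intermediate chain, was at 23130 in SKO 4 and at 11150 to 12450 in the other SKO libraries. Lrrc6, an assembly factor, was at 12450 in SKO 4 and at 7161 to 7839 in the others. Odad2, a docking protein, was at 11120 in SKO 4 and at 5554 to 6104 in the others. In the same genes CTL 3 and CTL 4 stood above CTL 1 and CTL 2, by ratios of 2.25, 1.70 and 1.90. These 3 libraries are the ones with the higher 18S share, and its part in the pattern was not tested. None of the 3 genes passed the test over all libraries, and all 3 fell by limma within the 5 libraries with less 18S (adjusted p 0.0173, 0.0194 and 0.0171).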

How the results depend on the processing

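The count of fallen members (18) was 19 with median-ratio factors, 15 with library totals, 21 with the length and GC correction, 22 without CTL 1 and CTL 2, 24 with the 18S set as covariate, 24 in the lower 18S libraries and 12 in the higher 18S libraries. It stayed at 18 with upper quartile factors, constants of 1 and 50, no filter, a filter of 200 (which left 2 members untested) and no mean trend. No member rose under any alternative. Library totals moved the median over all genes to 0.33 (log2) and that of the members to −0.47. They also moved the share of higher among called genes from 60.1% to 91.5%, against 49.2% with median-ratio factors. Under a test against a fold of 1.2 no gene passed, so that 0 members and 0 genes were called (limma, smallest adjusted p 0.0634), while 3552 genes and 21 members had an unadjusted p below 0.05.

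Counts of assembly genes (3) were 6 with the 18S covariate, 7 in the lower and 0 in the higher 18S libraries, 5 with the length and GC correction, and 5 without CTL 3 and CTL 4. Outer arm genes (4) were 2 in the higher 18S libraries. Fallen genes of the whole table (1354) were 456 with library totals, 2210 with the 18S covariate, 2283 and 252 in the lower and higher 18S libraries, and 2322 without CTL 1 and CTL 2. Risen genes (2038) were 4885 with library totals and 3194 and 43 in the lower and higher 18S libraries. With 1 library left out, fallen members ranged from 0 to 21, outer arm from 0 to 5, inner arm from 0 to 12, assembly from 0 to 5, fallen genes from 0 to 1526 and risen genes from 0 to 2455, the 0 being without SKO 3.

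Members whose sign changed all had adjusted p above the threshold. Dnal1 was at −0.0538 with median-ratio factors, −0.00323 with the 18S covariate, −0.0584 in the lower 18S libraries, −0.0910 without CTL 3 and CTL 4, and −0.12 to 0.0544 with 1 library left out. Dnaaf2 was at 0.00844 with upper quartile factors, 0.25 with library totals, 0.0386 with the 18S covariate, 0.27 in the higher 18S libraries, 0.000159 without CTL 3 and CTL 4, and −0.158 to 0.0953 with 1 library left out. With library totals Dnaaf10 was at 0.00146 and Dnaaf9 at 0.0944. Dnaaf6b was at −0.13 in the lower 18S libraries and −0.27 without CTL 3 and CTL 4. Dnah5 and Dnal4 were at 0.55 and 0.22 in the higher 18S libraries. The cause of these changes was not tested.

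The numbers in the titles did not pair the libraries: the correlations of same-numbered libraries were 0.67, 0.012, 0.082 and 0.23, and number 1 alone correlated best with its own number. With the replicate block 22 members fell, where 9.97% of all genes did, against 7.93% without it. Of the 22, 18 were the same genes, and Dnah7b, Dnai3, Lrrc6 and Odad2 were the others. Depth limits the scarce members: Dnah5, Dnah9, Dnaaf2 and Dnaaf6b had as few as 59, 101, 201 and 18 reads in a library.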

Other observations

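Marker lists of further testis cells were read from the same fit as background to the dynein genes, at log2 fold changes by limma, SKO minus CTL. Germ cell markers other than those described above were at 0.57 for Kit of the spermatogonia, −0.09 for Acrv1 and −0.17 for Spaca1 of the round spermatids, and −0.49 for Prm1 and 0.10 for Prm2 of the elongating spermatids. Of these 5 genes none passed. Over all genes tested 11.9% rose and 7.93% fell. Peritubular muscle markers rose in 3 of 5, among them Acta2 (0.78, adjusted p 0.0123), while Myh11 was at 0.58 (0.087). Leydig cell markers rose in 2 of 8, with Star at −0.16 and Cyp11a1 at 0.06. Cyp17a1 and Hsd17b3 of the same list were at −0.965 and −1.17, both with an unadjusted p below 0.05, and did not pass (adjusted p 0.0686 and 0.101). Macrophage markers were called higher in 1 of 8, near the 11.9% of all genes, with Csf1r at 0.42 and Cd68 at 0.50. Endothelial markers were called in 0 of 6 (1 at an unadjusted p below 0.05), with Pecam1 at 0.05 and Cdh5 at 0.37. Of the heart muscle markers other than Tnnt2 and Tnni3, Myh6 was at 0.70 and Myh7 at 0.43. The epididymal genes Cst8 and Rnase10 were at −0.35 and −0.59 and did not pass.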
